A study of Mus musculus with 8 samples.

Results

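The miR-191/miR-425 cluster consists of 2 neighbouring miRNA hairpins, each of which gives a 5p and a 3p mature miRNA. The members were taken by name from the deposited table of mature miRNA counts, and all 4 arms (mmu-miR-191-5p, mmu-miR-191-3p, mmu-miR-425-5p and mmu-miR-425-3p) were found among its 1978 mouse miRNAs. Small RNA had been sequenced from 3A, a mouse hepatocyte line that does not form tumours, and from the extracellular vesicles (EVs) that these cells released into their medium over 72 h, to follow how PCBP2 affects the partition of miRNAs between the cell and its EVs. There were 4 conditions with 2 biological replicates each, for 8 libraries in all. Cells named shCTR carried a scrambled shRNA and cells named shPCBP2 an shRNA against PCBP2, both stably expressed from a retroviral vector under puromycin selection, and the EV libraries came from the medium of the same lines. These libraries hold no mRNA, so the level of PCBP2 itself was not checked here. Medium for EV collection contained EV-depleted fetal bovine serum, and every sample received cel-miR-39, a nematode sequence, as a spike-in.

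A miRNA hairpin is cut by Dicer into a duplex, from which 1 strand is usually kept in an Argonaute protein as the guide while the other, the passenger, is mostly degraded. The guide finds its target mRNAs through its seed, bases 2 to 8 from the 5′ end. miR-191 and miR-425 are processed from a common primary transcript, and both are found in many tissues and in blood, where miR-191-5p is often used as a reference in RT-qPCR of serum. PCBP2 is a poly(C)-binding protein with KH domains. CELL motifs are short sequences linked to retention of miRNAs in the cell, and the hEXO motif is bound by SYNCRIP, which loads miRNAs into EVs.

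The hairpin of miR-191 lies at chr9:108568319-108568392 and that of miR-425 at chr9:108568777-108568861, both on the plus strand of GRCm38.p6, with 384 bases between them. RefSeq places both within the span of Dalrd3 (chr9:108567484-108572773), a protein-coding gene. GENCODE M21 starts Dalrd3 further downstream, at 108569886, and annotates the long non-coding gene 4833445I07Rik at chr9:108567533-108569174, with 1 transcript whose single exon covers both hairpins. It also lists a gene on the minus strand over the miR-191 hairpin, Gm24083. The hairpins are shown because both strands of the duplex were counted, with the mature arms in capitals, the 5p arm first (sequences from RefSeq, GRCm38.p6).
Mir191: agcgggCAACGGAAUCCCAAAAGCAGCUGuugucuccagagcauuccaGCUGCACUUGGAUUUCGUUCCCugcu
Mir425: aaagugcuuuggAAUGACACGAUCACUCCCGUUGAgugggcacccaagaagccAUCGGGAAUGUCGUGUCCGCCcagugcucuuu

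The mature sequences follow with their seeds in capitals, to show how the seeds of the 4 arms differ.
mmu-miR-191-5p: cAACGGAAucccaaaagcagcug
mmu-miR-191-3p: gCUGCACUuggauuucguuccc
mmu-miR-425-5p: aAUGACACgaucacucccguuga
mmu-miR-425-3p: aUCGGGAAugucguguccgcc

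No seed was shared between the arms. Among 1679 mature mouse miRNAs of the RefSeq table, only miR-425-5p had a seed in common with another miRNA, miR-489-3p, which had 0 counts in every library. The nearest other mature sequence differed by 8 edits from miR-191-5p and from miR-425-5p, and by 7 from each 3p arm, so the table held no near-identical copy of a member. The core CELL motif, AUUA or AUUG, occurred in 0 of the 4 arms, against 2.50% and 6.79% of all mature mouse miRNAs. GGCU, the letters used here for the hEXO motif, was likewise in 0 of the 4 and in 13.3% of all. The authors describe hEXO as a longer motif with alternative bases at each position, and that form was not searched. They also scanned for an extended CELL motif, which was not searched here either. A run of CCC was found in miR-191-5p from base 10, in miR-425-5p from base 16 and in miR-191-3p from base 20, and in 23.3% of all. All motifs were searched on the mature strand alone, and a missing match says only that these letters are not in the sequence.

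Between 26391248 and 38166798 reads were counted per library, most of them from the spike-in. Mouse miRNAs made up 33.1% to 42.6% of the reads in cell libraries and 1.62% to 2.42% in EV libraries, and 466 to 599 miRNAs had reads in a cell library against 183 to 202 in an EV library. Low counts were rare in EVs. Of the miRNAs with reads in an EV library, between 4 and 10 had a count from 1 to 40, while in cell libraries between 137 and 290 did. The hepatocyte miRNAs miR-122-5p and miR-194-5p were counted in every library, and miR-122-3p in none. Counts of miR-122-5p were 356 to 485 in cells and 795 to 2327 in EVs. Those of miR-194-5p were 218474 to 342726 in cells and 3784 to 5454 in EVs. A further hepatocyte miRNA, miR-192-5p, had 10976 to 20510 counts in cells. Its EV counts were 1058 and 62 with shCTR against 0 and 0 with shPCBP2. Blood cell miRNAs were unevenly spread over the compartments. Of a list of 14, 4 had 0 counts in all cell libraries (miR-451a and miR-144-3p of erythroid cells, and both arms of miR-142a of leukocytes), yet miR-451a had 3595 to 4430 and miR-142a-3p 1117 to 2157 counts in the EV libraries. The list as a whole took 9.19% to 10.7% of the mouse reads in cells and 26.3% to 30.6% in EVs. Its summed level was lower in EVs, at 4650 to 6516 reads per 1000000 spike-in reads against 50631 to 75657 in cells. This sum does not describe each member. Relative to the spike-in, 4 of the 10 members that could be tested were higher in EVs and 4 lower. miR-150-5p, for example, had 8 to 87 counts in cells and 3658 to 5575 in EVs, while miR-155-5p was lower in EVs.

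miR-191-5p was the dominant product of the cluster in every library. In cells its counts were 54034 and 40992 with shCTR against 27954 and 40540 with shPCBP2. The EV counts were 29229 and 23897 with shCTR against 25623 and 16650 with shPCBP2. Levels were expressed as reads per 1000000 spike-in reads, which corrects for how deeply each library was sequenced. The study's methods do not give the amounts of cell and EV material per unit of spike-in. An EV/cell level on this scale also depends on those amounts. On this scale miR-191-5p was at 2819 ± 302 with shCTR and 1930 ± 489 with shPCBP2 in cells, and at 985 ± 95.3 and 615 ± 95.4 in EVs (SD, n = 2 each). The EV libraries (548 to 1053) were all below the cell libraries (1584 to 3032), with no overlap. Most of the miRNAs tested below were also lower in EVs on this scale, and how many separated without overlap was not counted. In bulk samples of this kind, the counts alone cannot tell fewer vesicles from less miRNA per vesicle. The authors counted EVs per cell and excluded an effect of PCBP2 silencing on EV production, which was not examined here.

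miR-425-5p was the second product. Cells gave 3114 and 2408 counts with shCTR against 2274 and 2541 with shPCBP2. EVs gave 260 and 249 with shCTR against 297 and 118 with shPCBP2. Its level was 164 ± 15.3 with shCTR and 136 ± 9.71 with shPCBP2 in cells, and 9.46 ± 0.142 and 5.90 ± 2.85 in EVs (reads per 1000000 spike-in reads, SD, n = 2 each). Here too the compartments did not overlap, with 3.88 to 9.56 in EVs and 129 to 175 in cells, and the same limit applies. Both 3p arms were far rarer. For miR-191-3p the cell counts were 185 and 131 with shCTR against 63 and 97 with shPCBP2, and all 4 EV libraries had 0. For miR-425-3p they were 136 and 154 with shCTR against 74 and 180 with shPCBP2, with 0 in the EV libraries apart from 160 in EV shPCBP2 replicate 1.

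**Figure D1:**
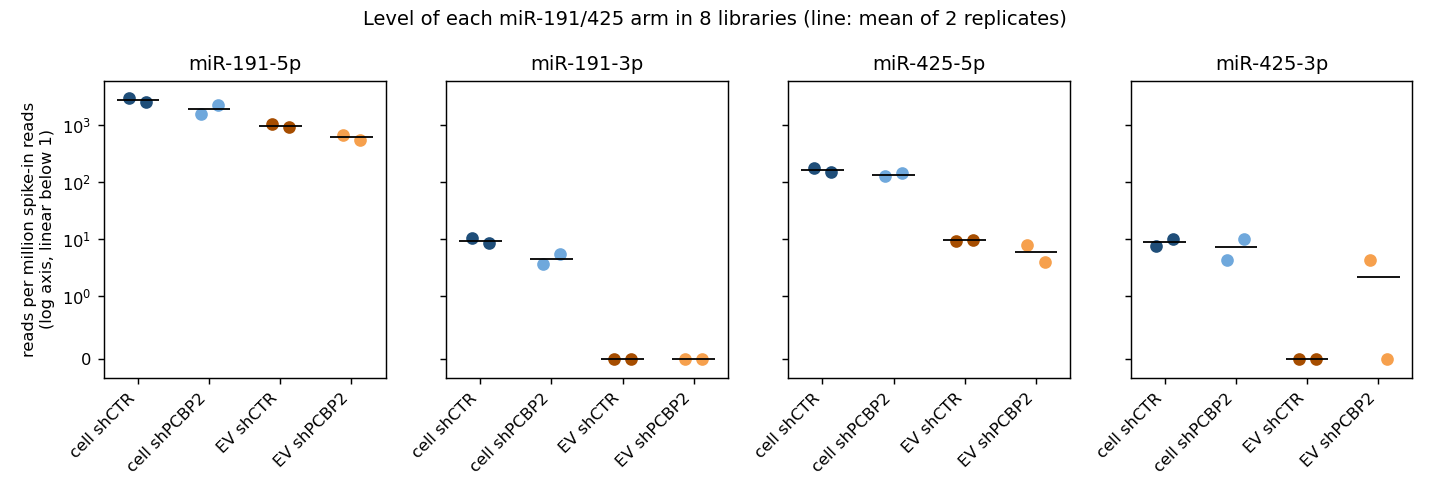
Reads per 1000000 spike-in reads (y axis, logarithmic above 1) of the 4 arms in the 4 conditions (x axis), with 1 point per library and a line at the mean of the 2 replicates. Both 5p arms were present in all 8 libraries and lower in EVs, while the 3p arms were at 0 in the EV libraries except for miR-425-3p in EV shPCBP2 replicate 1.

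The level of miR-191-5p relative to the spike-in was lower in EVs than in cells, by 2.86-fold in shCTR (log2 -1.52, standard error 0.25, adjusted p = 0.00183) and by 3.14-fold in shPCBP2 (log2 -1.65, standard error 0.25, adjusted p = 0.00126, quasi-likelihood test of edgeR, with Benjamini-Hochberg adjustment over 180 miRNAs). miR-425-5p was lower by 17.3-fold in shCTR (log2 -4.11, standard error 0.65, adjusted p = 0.00145) and by 23.0-fold in shPCBP2 (log2 -4.52, standard error 0.66, adjusted p = 0.00103). These calls were those of most miRNAs, as 66.1% of those tested passed in shCTR and 67.8% in shPCBP2, with 59.4% and 60% lower in EVs. What set miR-191-5p apart from the bulk was the size of its difference. The median log2 EV/cell level of all tested miRNAs was -4.93 in shCTR and -4.90 in shPCBP2. miR-191-5p lay 3.42 and 3.25 above these medians and ranked 36th and 41st of 180 from the highest. miR-425-5p lay 0.82 and 0.37 above them and ranked 65th and 79th.

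**Figure D2:**
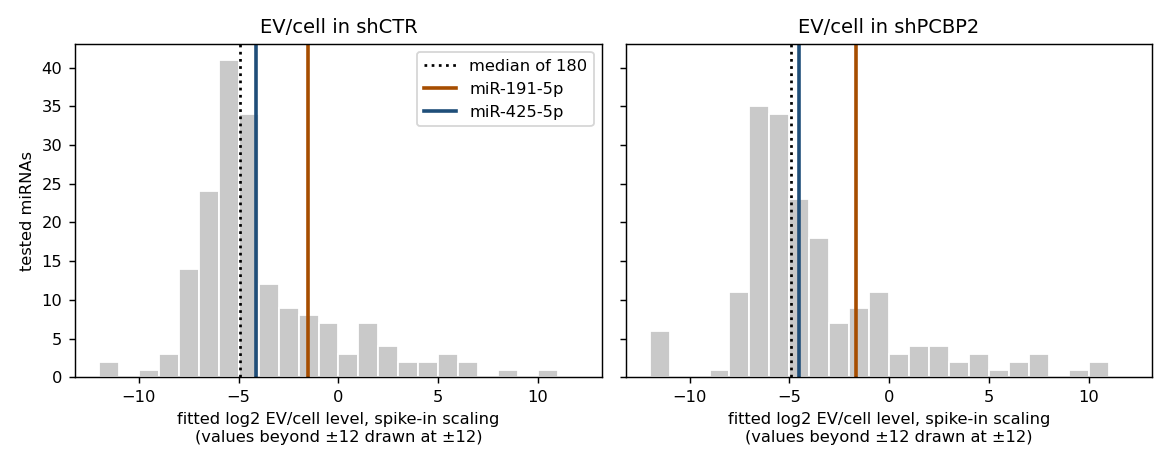
Number of tested miRNAs (y axis) by fitted log2 EV/cell level relative to the spike-in (x axis) in shCTR and shPCBP2, with the dotted line at the median of the 180 miRNAs. miR-425-5p sat next to the median, at -4.11 and -4.52, and miR-191-5p to its right, at -1.52 and -1.65.

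The direction for miR-191-5p depended on what the level was measured against. Scaled instead to all mouse miRNA reads of a library, the fitted EV/cell level of miR-191-5p was 3.47 on the log2 scale in shCTR (adjusted p = 1.98e-05) and 3.54 in shPCBP2 (adjusted p = 1.78e-05, both by the quasi-likelihood test of edgeR), higher in EVs, as were 23.9% and 30% of the tested miRNAs. As a share of the mouse miRNA reads, miR-191-5p made up 0.424% and 0.350% with shCTR and 0.320% and 0.321% with shPCBP2 in cells. In EVs it made up 4.25% and 4.32% with shCTR and 4.14% and 3.31% with shPCBP2. It ranked between 39th and 43rd by count in cells and between 5th and 8th in EVs. miR-425-5p made up 0.0201% to 0.0260% of the mouse reads in cells and 0.0235% to 0.0480% in EVs, and the EV library with the lowest share lay within the range of the cells. Its EV/cell level by total count was 0.88 in shCTR and 0.63 in shPCBP2, which did not pass the test (adjusted p = 0.375 and 0.537, edgeR's quasi-likelihood test). In the EV libraries, where miR-191-5p had this larger share, the blood cell miRNAs also had a larger share of the reads, and their part in the result was not tested.

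The ratio of miR-191-5p to miR-425-5p within a library does not depend on the scaling between libraries. In cells miR-191-5p was counted 17.4 and 17.0 times as often as miR-425-5p in shCTR, and 12.3 and 16.0 times in shPCBP2. In EVs it was counted 112 and 96 times as often in shCTR, and 86.3 and 141 times in shPCBP2. The lowest EV ratio was well above the highest cell ratio. On the log2 scale the ratio was 6.74 ± 0.31 (SD, n = 4) in EVs and 3.96 ± 0.23 (SD, n = 4) in cells, a difference of 2.78 or 6.88-fold (p = 0.0286, exact two-sided permutation test over the libraries, the smallest value that 4 against 4 allows). The difference was 2.59 in the shCTR libraries and 2.97 in the shPCBP2 libraries. Between shCTR and shPCBP2 the mean ratio moved from 4.10 ± 0.02 to 3.81 ± 0.27 in cells and from 6.70 ± 0.16 to 6.78 ± 0.50 in EVs (SD, n = 2 each). The cell values did not overlap, the EV values did, and an exact test of 2 libraries against 2 cannot give a p under 0.333.

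**Figure D3:**
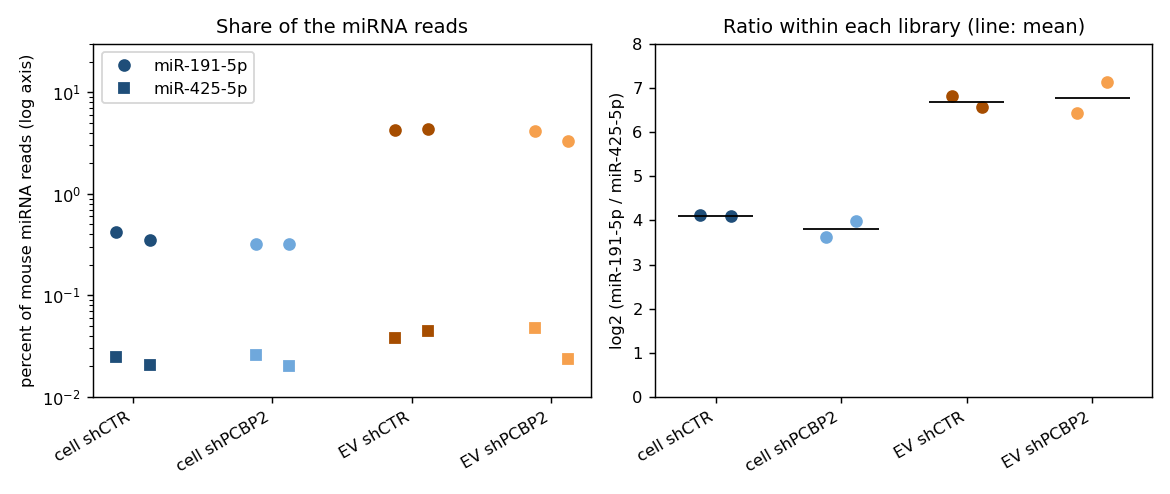
Left, percent of the mouse miRNA reads (y axis, logarithmic) taken by miR-191-5p (circles) and miR-425-5p (squares), and right, log2 of their ratio (y axis), in the 4 conditions (x axis), with 1 point per library and, on the right, a line at the mean of 2 replicates. The share of miR-191-5p was 3.31% or more in EVs and 0.424% or less in cells, and the log2 ratio was 6.43 or more in EVs and 4.12 or less in cells.

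Other miRNA clusters give a scale for this gap. Of 17 clusters listed, 13 had at least 2 guides that could be compared between compartments. The gap between the highest and the lowest fitted log2 EV/cell level within a cluster had a median of 1.67 in shCTR and 2.10 in shPCBP2. For miR-191/miR-425 it was 2.60 and 2.87, which ranked 3rd of 13 in both conditions and was the widest of the 8 clusters with exactly 2 guides. Only miR-99b/miR-125a, with 3 guides, and the cluster from miR-17 to miR-92a, with 4, had wider gaps (3.21 and 2.71 in shCTR). Of the 34 guides of the listed clusters, miR-191-5p had the second highest EV/cell level in both conditions, after miR-143-3p, whose cluster had no other guide to compare, and miR-425-5p ranked 6th and 9th. These ranks are descriptions, and some of these guides, such as miR-92a-3p and miR-30c-5p, have a further gene copy elsewhere in the genome.

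**Figure D4:**
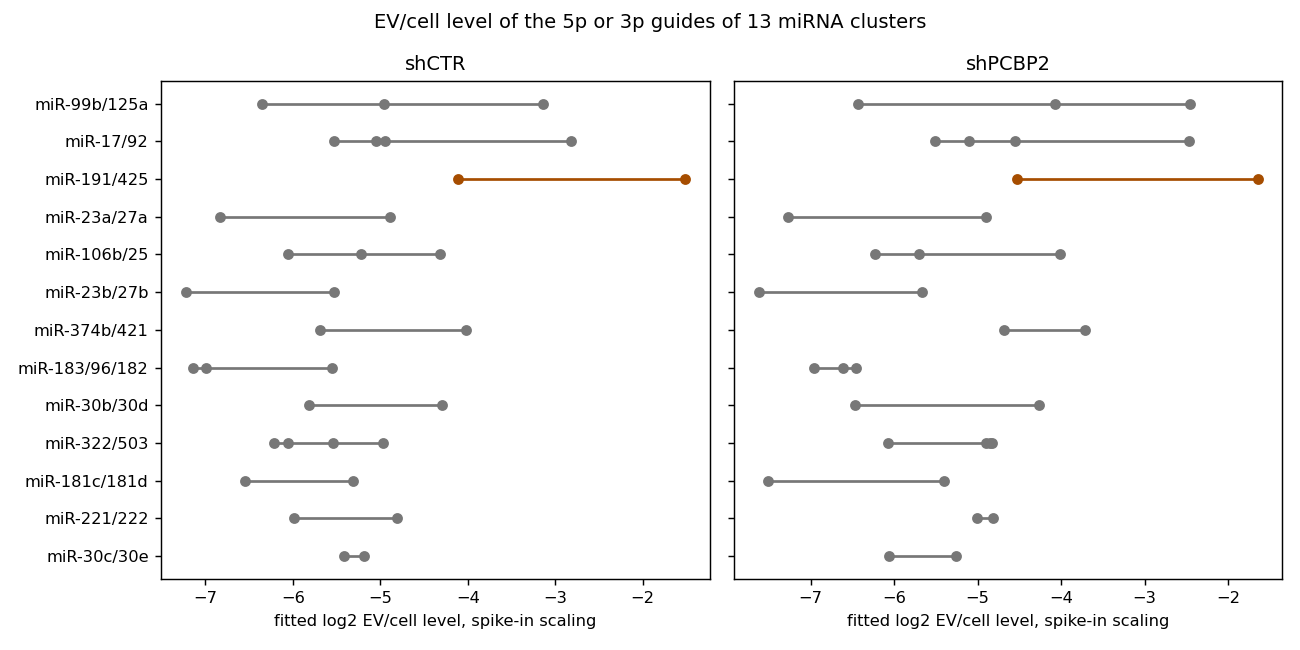
Fitted log2 EV/cell level relative to the spike-in (x axis) of the guides of 13 miRNA clusters (y axis), with 1 point per miRNA and a line from the lowest to the highest, in shCTR and shPCBP2. miR-191/miR-425, in colour, spans 2.60 and 2.87, and miR-191-5p is the point furthest to the right among the clusters drawn.

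The profiles of the 5p arms over the 8 libraries were compared with those of the other 179 tested miRNAs, as the Euclidean distance between log2 levels centred on each miRNA's mean. miR-194-2-3p (1.01), miR-423-5p (1.21), miR-20b-5p (1.53) and miR-92a-3p (1.58) were nearest to miR-191-5p, with log2 EV/cell levels in shCTR of -1.23, -0.64, -1.77 and -2.82. miR-20b-5p had 0 to 95 counts, so its distance is imprecise. The nearest to miR-425-5p were miR-30d-5p (0.46), miR-125b-5p (0.82), miR-26a-5p (0.92) and miR-361-5p (0.93), with log2 EV/cell levels from -4.68 to -3.78. The cluster mates were farther from each other, at 3.85. By this distance miR-425-5p came 39th for miR-191-5p, and miR-191-5p came 98th for miR-425-5p.

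The strand counts differed between the hairpins. In the cell libraries together, miR-191-3p made up 0.290% of the reads of its hairpin (476 of 163996, 95% exact binomial interval 0.265% to 0.317%) and miR-425-3p 5.00% (544 of 10881, 4.60% to 5.43%). These intervals cover counting error in the pooled reads and not the spread between libraries. By library the share of miR-191-3p was 0.341% and 0.319% in cell shCTR and 0.225% and 0.239% in cell shPCBP2. The shCTR libraries were the higher ones, without overlap, but an exact test of 2 libraries against 2 cannot give a p under 0.333. For miR-425-3p the share was 4.18% and 6.01% in cell shCTR and 3.15% and 6.62% in cell shPCBP2, and the conditions overlapped.

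In EVs the 3p arm of miR-191 was not detected, with 0 of 95399 reads of the hairpin, which, taking 3 counts as the limit, allows a share of up to 0.00314%. Such limits and intervals cover counting error only, since reads, not molecules, were counted. The limits also presume that a count as low as 3 would have been recorded. Counts from 1 to 40 were rare in EV libraries, so the share in EVs is not bounded this tightly. At the share seen in cells, 84.8 and 69.4 reads would have fallen on miR-191-3p in the EV shCTR libraries, and 74.4 and 48.3 in the EV shPCBP2 libraries. These numbers presume that both arms of the hairpin have the same EV/cell level, which was not tested. Among miRNAs with similar counts in cells, absence from the EV libraries was common. Of 93 other miRNAs with summed cell counts within a factor of 2 of miR-191-3p, 63 had no reads in any EV library. They were matched on cell counts alone, so they give no scale for the 48.3 to 84.8 reads named above. For miR-425-3p, 5.90 to 22.8 reads would have been reached in an EV library at the share seen in cells, within the range of counts that was rarely filled in EVs. For the 3 libraries with 0 reads, 3 counts correspond to shares of 1.15%, 1.20% and 2.54%, beside the 5.00% of the cells. As counts this low were rarely seen in EVs, these zeros do not show a lower share than in cells. The 160 reads in EV shPCBP2 replicate 1 were 35.0% of the reads of the hairpin there (95% exact binomial interval 30.6% to 39.6%), and the other EV libraries had 0 of 260, 249 and 118. A single library carried this signal, and no difference between shCTR and shPCBP2 can be drawn from it.

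PCBP2 silencing was compared with the control in each compartment. In EVs, miR-191-5p had a log2 difference of -0.68 (standard error 0.25, 95% interval -1.28 to -0.08), and the EV shPCBP2 values lay below the EV shCTR values. After correction this did not pass (adjusted p = 0.222, quasi-likelihood test of edgeR). The difference was smaller when scaled to miRNA counts, at -0.41 by TMM, -0.30 by median-of-ratios and -0.20 by the total count. miR-425-5p had a log2 difference of -0.68 (standard error 0.58, 95% interval -2.09 to 0.73, adjusted p = 0.667). It was -1.29 without EV shPCBP2 replicate 1, -0.26 without EV shPCBP2 replicate 2, and -0.44, -0.33 and -0.21 under the same scalings. Neither was among the 7.22% of miRNAs called in EVs. The median log2 difference of all tested miRNAs in EVs was -0.54, from which the arms lay -0.14 and -0.15 apart. How many of all tested miRNAs separated in EVs as miR-191-5p did was not counted. Without either cell shCTR library the number of miRNAs called in EVs went from 13 to 1.

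In cells the log2 difference was -0.55 for miR-191-5p (standard error 0.25, 95% interval -1.15 to 0.06, adjusted p = 0.425) and -0.27 for miR-425-5p (standard error 0.57, 95% interval -1.67 to 1.13, adjusted p = 0.938, edgeR's quasi-likelihood test), beside a median of -0.49 for all tested miRNAs. The sign for miR-425-5p turned under each scaling by miRNA counts, with 0.24 for TMM factors, 0.15 for median-of-ratios size factors and 0.03 for the total count. Of all miRNAs tested with edgeR, 0% passed in cells, while 25 had an unadjusted p under 0.05, and DESeq2 called 18 and limma voom 16. With the cell libraries fitted alone, where the 3p arms could be tested among 460 miRNAs, 4.13% were called, and none of the 4 arms was. That number, 19, was 0 without cell shPCBP2 replicate 1 and 55 without cell shPCBP2 replicate 2, and 5 without cell shCTR replicate 2. miR-191-5p was among the 55, with a log2 difference of -0.83 in cells (adjusted p = 0.0455, quasi-likelihood test of edgeR), against -0.55 with all 4 cell libraries (adjusted p = 0.321). The log2 difference was -1.05 for miR-191-3p (standard error 0.56, adjusted p = 0.285) and -0.28 for miR-425-3p (standard error 0.55, adjusted p = 0.861). miR-191-3p had lower counts per spike-in in both shPCBP2 libraries than in both shCTR libraries, and miR-425-3p overlapped. The median log2 difference of the 460 miRNAs was -0.49, and how many of them separated in the same way was not counted.

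For the EV/cell ratio, the measure of partition in this design, neither 5p arm passed the test between the conditions. Its log2 change in shPCBP2 against shCTR was -0.13 for miR-191-5p (standard error 0.35, 95% interval -0.98 to 0.72) and -0.41 for miR-425-5p (standard error 0.81, 95% interval -2.39 to 1.57). For both the adjusted p was 0.992 (edgeR's quasi-likelihood test), and 2.22% of all miRNAs were called. For miR-191-5p the interval covers folds from 0.506 to 1.64, and for miR-425-5p folds from 0.191 to 2.97, so the data limit a change less tightly for miR-425-5p than for miR-191-5p. Leaving out single libraries turned the sign for both, as it became 0.02 for miR-191-5p and 0.01 for miR-425-5p without EV shPCBP2 replicate 2, and 0.15 for miR-191-5p without cell shPCBP2 replicate 2.

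**Figure D5:**
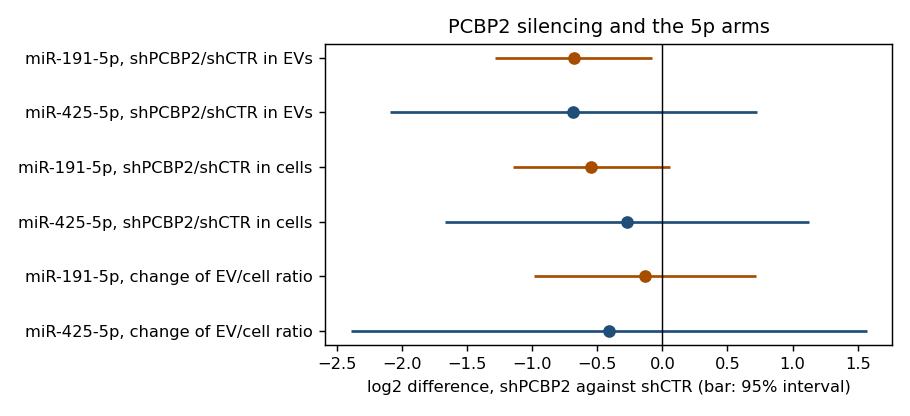
Log2 difference between shPCBP2 and shCTR (x axis) of the 5p arms in EVs, in cells and for the EV/cell ratio (y axis), with a point at the fitted value and a bar for the 95% interval. The intervals contain 0 except that of miR-191-5p in EVs, which runs from -1.28 to -0.08 and did not pass the correction, and the bars of miR-425-5p are the wider ones.

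Lists of related miRNAs were described by the same fits, and they share some miRNAs with each other. Of 9 miRNAs often used as references in serum, 9 were tested and 0 were called between shPCBP2 and shCTR in EVs or in cells (edgeR's quasi-likelihood test). Their median log2 difference was -0.37 in EVs and -0.40 in cells, and their EV/cell level was lower in EVs for 7, with a median of -4.89 in shCTR, close to that of all miRNAs. Within this list miR-423-5p had the highest EV/cell level in shCTR (-0.64) and miR-24-3p the lowest (-6.75). Of the 10 tested blood cell miRNAs, 4 were higher and 4 lower in EVs in both conditions. In shCTR miR-155-5p was the lowest (-5.68) and miR-223-3p, with 0 to 6 counts in cells, the highest (10.4). The 4 members with 0 counts in all cell libraries did not pass the filter, so this balance leaves out members read only in EVs. Over all tested miRNAs, 6.67% were higher in EVs in shCTR and 7.78% in shPCBP2. Of the list, 0 were called between shPCBP2 and shCTR. In EVs their log2 difference between the conditions ranged from -1.37 for miR-126a-5p to 0.28 for miR-126a-3p. Of 8 miRNAs abundant in hepatocytes, 7 were tested. Of these, 4 were lower in EVs in each condition, with a median EV/cell level of -5.57 in shCTR and -5.48 in shPCBP2, 1 (miR-148a-3p) was higher in EVs in shPCBP2, and 1 (miR-192-5p, with 0 counts in both EV shPCBP2 libraries) was lower in EVs of shPCBP2 than of shCTR.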

How the data were processed

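Small RNA was sequenced in 8 libraries. Reads were trimmed by the authors, and the forward reads were mapped by them with NovoAlign, within mirPRo, onto miRBase hairpins plus the spike-in sequence. The authors deposited raw counts of reads per mature miRNA, not normalized. Groups and replicate numbers follow the sample titles, and the descriptions number the shPCBP2 libraries differently. Nothing in the labels ties a cell library to an EV library, and the replicates are described only as biological replicates.

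Here, a miRNA was tested if it had at least 1 read in 2 of the cell libraries and in 2 of the EV libraries, which left 180. They were fitted with edgeR 4.0.16 (R 4.3.3), taking the spike-in count as the library size, with a term for each condition. The common dispersion was 0.693, so small differences are not resolved. Adjusted p-values are Benjamini-Hochberg values over all tested miRNAs, and 0.05 was the threshold. Standard errors and 95% intervals were derived from the F statistic with 4 residual and 2.10 prior degrees of freedom and are approximate. The cell libraries alone were fitted for 460 miRNAs with at least 10 counts in 2 of them. Log2 ratios within a library used a pseudocount of 0.5. Clusters were compared by guides that were above 3 counts in at least 1 library of each condition. DESeq2 1.42.0 and limma 3.58.1 were alternatives. The fitting code was tested on simulated counts. The members, the lists and the tests were chosen with earlier results of these data known. The miRNAs named are the members, the 4 nearest profiles of each 5p arm, the extremes of each list, and, chosen after their values were seen, the markers given by count and the clusters and guides that ranked beside the members.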

Additional observations from a re-analysis of the deposited data

Results flagged for a closer look

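miR-425-3p had 160 counts in EV shPCBP2 replicate 1 and 0 in the other 3 EV libraries, among them both controls, and it was left out of the tests of the EV libraries by the filter on reads. In that library 47 of 189 miRNAs with reads had a lower count. Reads in a single EV library were not rare, as 17 miRNAs had reads in EV shPCBP2 replicate 1 alone, 16 in EV shPCBP2 replicate 2 alone, and 26 and 11 in the EV shCTR replicates alone.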

How the results depend on the processing

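The EV/cell level depended on the scaling. Scaled by TMM, by median-of-ratios or by total miRNA count, it was 3.25, 3.25 and 3.47 for miR-191-5p in shCTR, 2.91, 3.11 and 3.54 in shPCBP2, 0.65, 0.67 and 0.88 for miR-425-5p in shCTR, and -0.024, 0.18 and 0.63 in shPCBP2, all on the log2 scale. miR-191-5p passed an adjusted p of 0.05 under these scalings and miR-425-5p did not. The median of all tested miRNAs moved from -4.93 to -0.17, -0.15 and 0.06 in shCTR. The cause was not tested. For the silencing, miR-191-5p passed in cells fitted alone without cell shPCBP2 replicate 2 (-0.83, adjusted p = 0.0455, edgeR), and no arm passed under the other alternatives. Without 1 library that value ranged from -0.83 to -0.31. The alternatives for the 5p arms in cells fitted alone were chosen after seeing the data. The sign turned for miR-425-5p in cells (0.24, 0.15 and 0.034 in the same order, and 0.22, 0.25 and 0.033 in cells fitted alone), for the EV/cell change of miR-191-5p with the total count (0.073), and for miR-425-3p in cells by TMM (0.13) and by median-of-ratios (0.16). DESeq2 gave no adjusted p for the 3p arms. With 1 library left out, the EV/cell change ranged from -0.37 to 0.15 for miR-191-5p and from -1.01 to 0.013 for miR-425-5p, and the cell difference of miR-425-3p from -1.05 to 0.21 (0.21 without cell shPCBP2 replicate 1). Leaving out 1 library, the ratio of miR-191-5p to miR-425-5p differed by 2.65 to 2.89 between compartments, with the smallest p that 3 libraries against 4 allow, 0.0571. The replicate block changed no call of an arm, with a log2 EV/cell level in shCTR of -1.52 and -4.10 for miR-191-5p and miR-425-5p. Deviations of same-numbered libraries correlated from -0.51 to 0.04 over 6 pairs of conditions, and the numbers were not taken as pairs. With the block, 1 miRNA was called for the EV/cell change, 2 in EVs and 29 in cells fitted alone. Counts of calls over all miRNAs moved more, from 0 to 14 for the EV/cell change (4 as reported), 1 to 27 in EVs (13), 0 to 39 in cells (0), 0 to 55 in cells fitted alone (19), and 75 to 294 and 86 to 294 for EVs against cells (119 and 122).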
